A study of Homo sapiens with 21 samples.

Results

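The insulin-like growth factor (IGF) binding proteins and the IGF ligands were followed across 6 doses of caffeine in HepG2 cells, a human hepatocellular carcinoma line. The 10 members were IGFBP1 to IGFBP7, IGFALS, IGF1 and IGF2, found by symbol through their Ensembl identifiers, and they are 10 of 37637 features in the count table. The family was chosen on the rise of IGFBP1 at 1000 µM, so the values of IGFBP1 are given as a description with no test. The other 9 members belong to it by name. Caffeine was given for 24 h at 0.01, 0.1, 1, 10, 100 or 1000 µM in serum-free DMEM, and the control group received the same medium without caffeine. Each of the 7 groups held 3 biological replicates, per the series' design text, which makes 21 libraries from 1 cell line. All groups, control included, had lost their serum at the time of exposure. In bulk RNA, fewer expressing cells and less RNA per cell cannot be told apart.

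IGF1 and IGF2 are secreted growth factors that act through the IGF1 receptor and, in part, through the insulin receptor. In plasma they are carried by high-affinity binding proteins, which prolong their life and control how much ligand reaches the receptors. IGFALS, the acid-labile subunit, joins IGFBP3 or IGFBP5 and a ligand in a large circulating complex. The liver is the main source of circulating IGF1, IGFBP1 and the acid-labile subunit. IGFBP1 is a short-lived, hormonally controlled member: insulin lowers its transcription, while cyclic AMP, glucocorticoids, hypoxia and amino acid shortage raise it. IGFBP7 binds IGFs weakly and is often set apart as an IGFBP-related protein. HepG2 cells secrete several IGFBPs and keep a fetal-like IGF2 expression.

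The libraries held between 23502519 and 44815552 counts each, and 17951 features passed the filter on low counts. The labels name no batch, but the 21 libraries fell into 3 sets by their mitochondrial mRNAs. Set A held 11 libraries (control, 0.01 and 0.1 µM, and 1 µM replicates 1 and 2), with 9.95% to 14.2% of counts from mitochondrial genes. Set B held 7 libraries (1 µM replicate 3, all of 10 µM, 100 µM replicate 2, and 1000 µM replicates 1 and 2), with 4.72% to 4.94%. Set C held 3 libraries (100 µM replicates 1 and 3, and 1000 µM replicate 3), with 11.8% to 12.8%. No control library lies in set B or C, so doses of 10 µM and above were compared with control across sets, and what the sets reflect was not tested. Results are therefore given also with the set as a term in the fit and within a set. Only the 1 µM group lies in both set A and another set, through 1 library, replicate 3. Set-term values of 10 µM and above against control, and their calls, therefore rest on that 1 library and carry its own deviation. All 9 hepatocyte markers, among them ALB, AFP and HNF4A, exceeded a mean of 1 CPM (the count scaled to a common library size by TMM), and their summed level was 34645 to 42832 CPM in the controls and 28173 to 29541 CPM at 1000 µM. Of 6 stellate cell or fibroblast markers, COL1A1, COL1A2, COL3A1, DCN and LRAT stayed below 1 CPM in every library. The summed stellate level, of which PDGFRB was the member above 1 CPM, was 3.18 to 3.85 CPM in the controls and 18.2 to 23.5 CPM at 1000 µM. The endothelial markers CDH5 and VWF, and the leukocyte markers PTPRC and CD163, stayed below 1 CPM, while CD68 exceeded it and carried a summed leukocyte level of 40.9 to 55.1 CPM in the controls and 18.2 to 46.0 CPM at 1000 µM. Of the biliary markers, KRT19, SOX9 and EPCAM exceeded 1 CPM and KRT7 did not, with sums of 702 to 749 CPM in the controls and 540 to 549 CPM at 1000 µM. The part of these lists in the results was not tested.

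The upstream sequences of members that were lower at 1000 µM (IGFALS and IGFBP4), or that had most of their counts there (IGFBP3), are shown because the family is classically regulated at its promoters. Each is the 250 bases before the RefSeq transcript start (GRCh38.p14), written 5′ to 3′ on the gene's own strand. Capitals mark every match, on either strand, to 5 motifs: the insulin response core CAAAACA, the forkhead consensus GTAAACA, the cAMP response element TGACGTCA, the xenobiotic response core GCGTG and the TATA box TATAAA. These windows are chr16:1794909-1795158 on the minus strand for IGFALS, chr17:40443200-40443449 on the plus strand for IGFBP4, and chr7:45921273-45921522 on the minus strand for IGFBP3.
IGFALS: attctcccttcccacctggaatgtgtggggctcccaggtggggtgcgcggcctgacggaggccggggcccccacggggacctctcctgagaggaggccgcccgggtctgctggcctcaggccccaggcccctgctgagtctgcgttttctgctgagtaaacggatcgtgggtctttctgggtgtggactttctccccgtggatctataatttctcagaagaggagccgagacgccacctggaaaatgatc
IGFBP4: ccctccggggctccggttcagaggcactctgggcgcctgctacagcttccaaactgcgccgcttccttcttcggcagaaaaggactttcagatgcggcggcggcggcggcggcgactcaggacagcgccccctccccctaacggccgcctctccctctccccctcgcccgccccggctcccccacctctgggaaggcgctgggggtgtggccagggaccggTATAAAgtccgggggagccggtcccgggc
IGFBP3: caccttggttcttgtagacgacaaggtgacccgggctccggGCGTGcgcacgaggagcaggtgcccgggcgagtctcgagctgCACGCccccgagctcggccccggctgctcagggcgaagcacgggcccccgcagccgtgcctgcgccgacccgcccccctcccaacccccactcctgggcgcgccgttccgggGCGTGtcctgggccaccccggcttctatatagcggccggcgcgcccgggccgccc

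The IGFALS window held none of the 5 motifs and had 62.8% G and C. The IGFBP4 window had 71.6% G and C and 1 TATAAA, 29 bases before the start. The IGFBP3 window had 76.0% G and C and 3 GCGTG matches, 55, 167 and 209 bases before the start. Among all 35116 windows of this length, 10.7% held TATAAA and 32.2% held GCGTG, so the latter is a common match. The insulin response core was in 4.30% of all windows, the forkhead consensus in 2.98% and the cAMP response element in 1.65%, and the median window had 58.0% G and C. Windows were listed for 7 members, 10 windows in all. In the other members' windows, GTAAACA lay 186 bases before the start of IGFBP6 and 247 bases before 1 start of IGF1, and GCGTG lay 132 bases before 1 start of IGFBP2. IGFBP1, IGFBP7 and IGF2 had no listed window. A match in these letters is a description and shows no binding.

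IGFBP1, on whose rise the family was chosen, lies beside IGFBP3 on chromosome 7 (chr7:45888488-45893660, with 18584 bp and no listed gene to IGFBP3). Control libraries held 98.1, 98.8 and 115 CPM of IGFBP1. At 1000 µM the libraries held 2931, 2932 and 4065 CPM. The 1000 µM libraries thus stood far above every other library, whose highest value was 222 CPM. This is 31.8-fold over control, a log2 fold change of 4.99 ± 0.15 (SE), and 15.1-fold over 100 µM.

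The lower doses also lay above control for IGFBP1, in all 18 treated libraries. The 3 libraries at 100 µM were nearly equal, at 220, 217 and 222 CPM, which is 2.11-fold over control (log2 1.08 ± 0.13). Libraries at 0.01 µM held 143, 151 and 176 CPM (log2 0.59 ± 0.13), and those at 0.1 µM held 123, 144 and 144 CPM (0.40 ± 0.13). Libraries at 1 µM held 140, 150 and 184 CPM (0.61 ± 0.13), and those at 10 µM held 142, 173 and 145 CPM (0.56 ± 0.13). Ordered by mean, the groups ran control, 0.1, 10, 0.01, 1, 100 and 1000 µM. The 0.1 and 10, 10 and 0.01, and 0.01 and 1 µM groups overlapped in range, while the others in this order did not overlap with their neighbours. This order crosses the library sets, and with the set as a term the values differ, as given after the plot of the members. For reading these ranges, the share of all 17951 features whose groups do not overlap with control was 23.1%, 19.2% and 17.3% in the comparisons of 0.01, 0.1 and 1 µM and was 39.8% for 10 µM, 51.1% for 100 µM and 56.6% for 1000 µM.

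**Figure D1:**
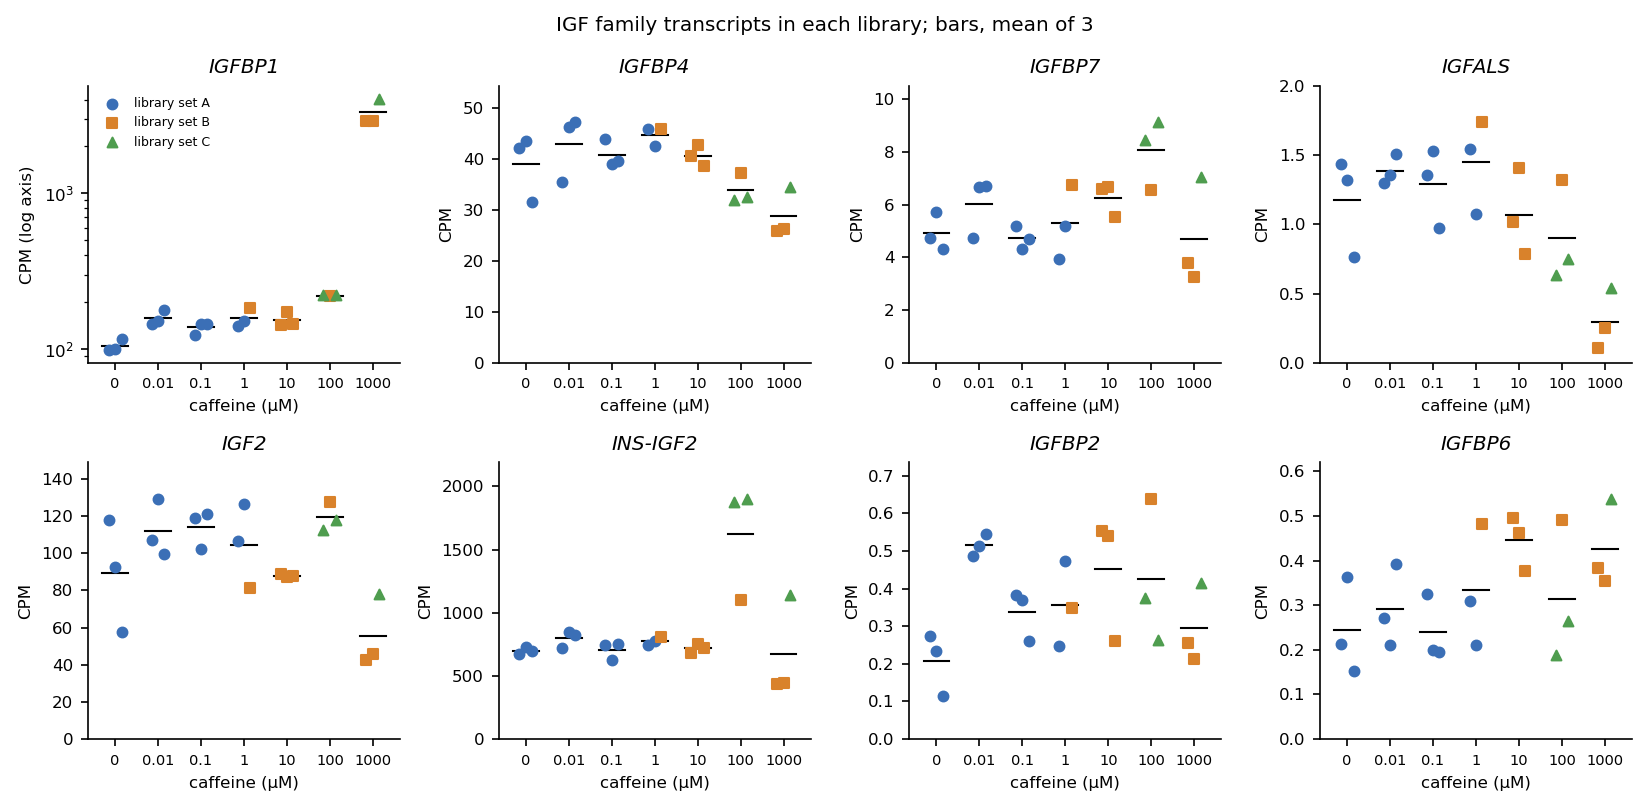
Each panel plots 1 family member, with caffeine dose (µM) on the horizontal axis and TMM-scaled CPM on the vertical axis, a point per library coloured by library set. IGFBP1 stands at 2931 to 4065 CPM at 1000 µM against at most 222 CPM elsewhere, while IGFALS is lowest at 1000 µM.

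IGFBP1 was also higher at 1000 µM inside each library set that holds this dose. Within set B the mean of the 2 libraries at 1000 µM was 19.1-fold the mean of the 3 libraries at 10 µM and 13.5-fold the single library at 100 µM. Within set C the single library at 1000 µM was 18.4-fold the mean of the 2 libraries at 100 µM. With the set as a term, its log2 fold change was 4.55 ± 0.22 for 1000 µM, 0.58 ± 0.20 for 100 µM and 0.22 ± 0.19 for 10 µM. The log2 fold changes at 0.01 and 0.1 µM, which lie wholly in set A with the controls, kept the values 0.59 and 0.40.

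Levels of different genes were compared per length, as RPKM (CPM per kilobase of merged exons in GENCODE 29). IGFBP1 was at 62.9 ± 5.76 RPKM (SD, n = 3) in the controls, IGFBP4 at 17.8 ± 2.96, IGFBP7 at 2.55 ± 0.38 and IGFBP6 at 0.181 ± 0.080. IGFBP1 was therefore the leading binding protein mRNA before any caffeine, with 72.2% to 87.4% of the summed IGFBP1 to IGFBP7 RPKM in each library below 1000 µM. At 1000 µM it was at 2002 ± 396 RPKM and made up 99.2% of that sum. Its rank among 32338 annotated genes, by RPKM, was 210 to 571 below 1000 µM and 11 to 15 at 1000 µM. The other IGFBPs together did not rise: their summed RPKM was 20.5 ± 3.35 in the controls and 16.0 ± 3.33 at 1000 µM.

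IGFBP4, a binding protein that chiefly inhibits IGF action until proteases cleave it, fell at 1000 µM by a modest amount (chr17:40443450-40457725). Its control libraries held 42.2, 43.5 and 31.6 CPM, and its 1000 µM libraries 25.9, 26.2 and 34.4 CPM. The ranges overlapped, since the third control lay below the third treated library. The log2 fold change was -0.44 ± 0.13, at an adjusted p of 0.0077 (edgeR), and adjusted p ran from 7.99e-04 to 0.087 over its 30 alternatives. With the set as a term it was -0.53 ± 0.24 with an adjusted p of 0.087, and in a fit of these 2 groups alone the call was also lost. Within set B, against 10 µM, IGFBP4 was lower by log2 -0.68 ± 0.066 (adjusted p = 1.53e-06, edgeR). Within set C it was not lower: the ratio of 1000 to 100 µM was 1.07, with 1 library at 1000 µM.

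IGFBP7, the low-affinity IGFBP-related protein, had its highest group mean at 100 µM (chr4:57030773-57110385). Its libraries held 4.74, 5.71 and 4.29 CPM in control, 8.47, 6.57 and 9.13 CPM at 100 µM, and 3.78, 3.26 and 7.05 CPM at 1000 µM. At 100 µM all 3 libraries lay above all controls, and at 1000 µM the set C library lay above the controls and the set B libraries below them. The 100 µM range overlapped with that of 10 µM, and the set B library at 100 µM lay within the values of the other set B libraries up to 10 µM. The log2 fold change was 0.70 ± 0.24 at 100 µM (adjusted p = 0.022, edgeR), but -0.32 ± 0.30 with the set as a term (adjusted p = 0.52; 0.0040 to 0.52 over 30 alternatives). The call was lost without control replicate 1 or 3 or 100 µM replicate 1 or 3. From 100 to 1000 µM it changed by -0.79 ± 0.24 (adjusted p = 0.013, edgeR) and by -0.61 ± 0.17 with the set as a term (adjusted p = 0.0053; 1.39e-04 to 0.089 over 31 alternatives). That call was lost without 100 µM replicate 3 or without 1000 µM replicate 1 or 2. At 1000 µM against control the value was -0.08 ± 0.24 (adjusted p = 0.79), and -0.93 ± 0.29 with the set term (adjusted p = 0.017; 0.017 to 0.95 over 30 alternatives). Within set B the log2 fold change from 10 to 1000 µM was -0.86 ± 0.14 (adjusted p = 1.14e-04).

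IGFBP2, a binding protein abundant in fetal life, and IGFBP6, which prefers IGF2, were near the limit of detection. IGFBP2 ranged from 0.115 to 0.640 CPM and never exceeded 30 counts in a library. Its control libraries held 0.275, 0.234 and 0.115 CPM and its 100 µM libraries 0.375, 0.640 and 0.265 CPM, so the groups overlapped. The group mean of IGFBP2 was highest at 0.01 µM (0.488, 0.512 and 0.545 CPM, all above the controls), where its log2 fold change was 1.26 ± 0.41 with an adjusted p of 0.18, and at 10 µM it was 1.08 ± 0.41 with an adjusted p of 0.083. Its value at 100 µM was 1.05 ± 0.42 (adjusted p = 0.044, edgeR), a call lost with DESeq2's Wald test, without a filter, with a replicate block, with the set as a term, and in 14 of the 21 fits without 1 library. IGFBP6 ranged from 0.153 to 0.539 CPM and passed the threshold at no dose. Its log2 fold change at 1000 µM was 0.74 ± 0.42 (adjusted p = 0.14), and -0.07 ± 0.71 with the set as a term. All 3 IGFBP6 libraries at 10 µM, which are in set B, lay above the controls.

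IGFBP3, the main carrier of circulating IGFs, was counted mainly at 1000 µM, with 22 of its 30 counts, where its libraries held 8, 10 and 4 counts (chr7:45912245-45921272). The 3 controls, and the libraries at 0.01 and 10 µM, held 0 counts, and no library below 1000 µM held more than 3. With 22 counts pooled over the group, the 1000 µM level was 0.240 CPM. This observed level was 7.80-fold a floor of 3 counts over the control group, and within set B it was 9.58-fold such a floor at 10 µM. These ratios leave out the counting error of the 1000 µM libraries. Within set C the values lay closer, at 0.166 CPM (4 counts) in the library at 1000 µM and a mean of 0.0629 CPM (3 counts in all) in the 2 libraries at 100 µM. Its counts were too low for the main filter, so it is not among the tested members. It could enter a test only through the 1000 µM libraries, where it is high, and no p is given for it. Its level stayed far below that of its neighbour IGFBP1 on the per-length scale, at 0.0528 RPKM. IGFBP5, a binding protein of bone and connective tissue and the neighbour of IGFBP2 on chromosome 2, had 0 counts in all 21 libraries. Over the 701409631 counts of the series, 0 counts allow a level of up to 0.00428 CPM.

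IGFALS, whose product stabilises the circulating complex, showed the largest fall among the tested members (chr16:1790413-1794908). Its control libraries held 1.44, 1.32 and 0.767 CPM. At 1000 µM they held 0.102, 0.248 and 0.539 CPM, from 4, 7 and 13 counts. All 3 treated libraries lay below all controls, and the set C library was the highest of the 3. The log2 fold change was -2.09 ± 0.43 (adjusted p = 0.00041, edgeR), which is 4.25-fold lower, and it kept its call in each of the fits without 1 library, with values from -2.81 to -1.61. With the set as a term it was -2.49 ± 0.68 (adjusted p = 0.0071), and over its 29 alternatives adjusted p ran from 2.03e-05 to 0.013. At 100 µM it was -0.35 ± 0.37 (adjusted p = 0.46, edgeR). From 100 to 1000 µM it fell by 1.74 ± 0.44 (adjusted p = 0.0034, edgeR), a call lost in a fit of these 2 groups alone. Over the fits without 1 library, the log2 fold change from 100 to 1000 µM ran from -2.47 to -1.26. Within set B it was 7.55-fold lower than the single 100 µM library and 6.12-fold lower than at 10 µM, but within set C the ratio to 100 µM was 0.777, with 1 library at 1000 µM.

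IGF1, the liver's endocrine growth factor under growth hormone control, was essentially uncounted, with 2 counts over all 21 libraries. IGF2, the fetal-type growth factor and the ligand these cells transcribed, had its lowest group mean at 1000 µM (chr11:2129117-2149566). Its libraries held 118, 92.8 and 57.6 CPM in control and 42.5, 45.9 and 77.9 CPM at 1000 µM, with overlap between the third control and the third treated library. The libraries at 100 µM held 112, 127 and 118 CPM, above all 3 at 1000 µM. The log2 fold change of IGF2 from 100 to 1000 µM was -1.11 ± 0.23 (adjusted p = 0.00096, edgeR), and -1.05 ± 0.23 with the set as a term (adjusted p = 0.0017; up to 0.011 over 31 alternatives). Against control it was -0.69 ± 0.23 (adjusted p = 0.017), and the call was lost with the set as a term (-0.32, adjusted p = 0.58, the highest of 30 alternatives), without a filter, in a fit of the 2 groups alone, and without control replicate 1 or 1000 µM replicate 1 or 2. Within set B, IGF2 was lower at 1000 than at 10 µM by log2 -1.03 ± 0.056 (adjusted p = 9.92e-09).

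The IGF2 count is uncertain because the readthrough gene INS-IGF2 overlaps it over 20450 bp (chr11:2129117-2161209). Of the readthrough's 1826 exonic bases, 1460 (80.0%) are shared with IGF2, and how the authors' counting treated shared reads is not given in the sources used here. INS-IGF2 took 85.1% to 94.3% of the reads assigned to the pair. Summed over the pair, libraries held 789, 820 and 753 CPM in control and 478, 494 and 1218 CPM at 1000 µM. The set C library at 1000 µM thus lay above every control. INS-IGF2 alone held 671, 727 and 696 CPM in control, 1876, 1100 and 1904 CPM at 100 µM, and 435, 448 and 1140 CPM at 1000 µM. At 100 µM the 2 set C libraries were the highest, and at 1000 µM the set C library was again above both set B libraries. Its log2 fold change was 1.22 ± 0.28 at 100 µM (adjusted p = 0.0018, edgeR), and 0.38 ± 0.19 with the set as a term (adjusted p = 0.19, the highest of 30 alternatives). From 100 to 1000 µM it was -1.27 ± 0.28 (adjusted p = 0.0014, edgeR), and -1.89 to -1.04 over the fits without 1 library. With the set as a term it was -1.02 ± 0.10 (adjusted p = 1.23e-07, edgeR). Adjusted p reached 0.054 over 31 alternatives, in a fit of these 2 groups alone. Against control at 1000 µM it was -0.05 ± 0.27 (adjusted p = 0.89), but -0.66 without 1000 µM replicate 3 (adjusted p = 0.0015). From 100 to 1000 µM, IGF2 and INS-IGF2 both fell.

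**Figure D2:**
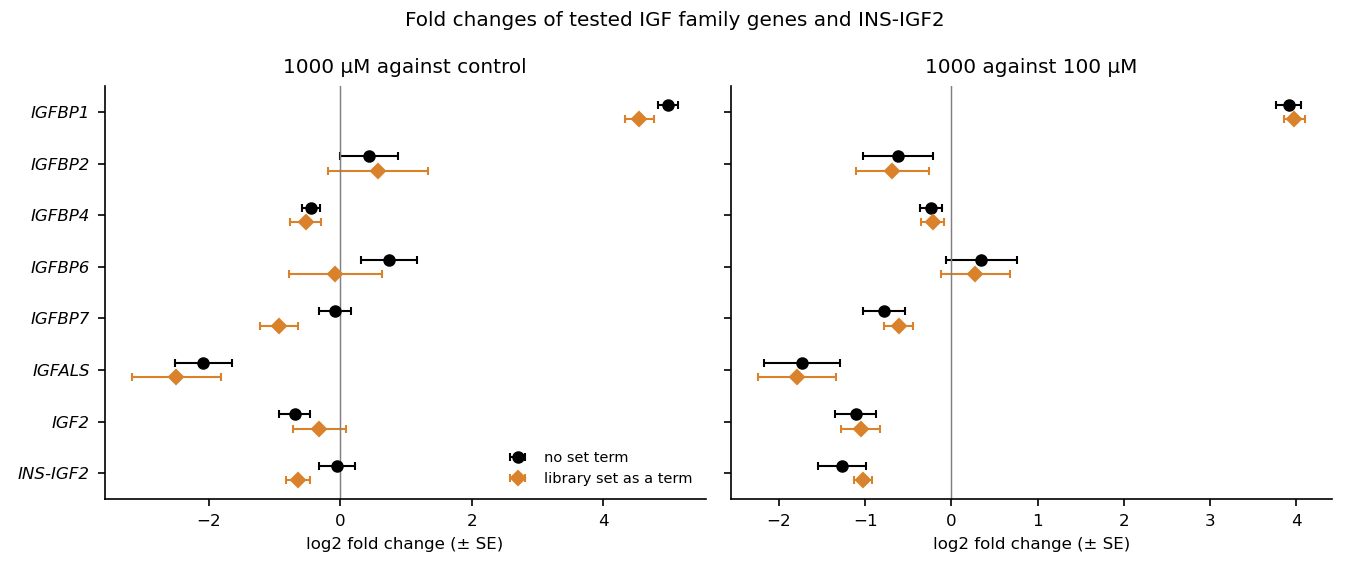
Log2 fold changes (horizontal axis) of the tested members and INS-IGF2 with their standard errors, fitted without and with the library set as a term. Panels show 1000 µM against control and 1000 against 100 µM. Against control, IGFBP1 is at 4.99, and 4.55 with the set term, whereas IGFBP7 lies lower with the set term than without it.

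Across the other 9 members, 6 were tested, namely IGFBP2, IGFBP4, IGFBP6, IGFBP7, IGFALS and IGF2. None was called at 0.01, 0.1, 1 or 10 µM by edgeR, where 0.0279%, 0%, 0.106% and 14.8% of all features were called. At an unadjusted p under 0.05, edgeR gave 1, 0, 0 and 1 of the 6, IGFBP2 in each case. Of all 17951 features, 2698, 1701, 2811 and 5530 had such a p by edgeR. Neither DESeq2's Wald test nor limma-voom called any of the 6 at these doses after adjustment. DESeq2 called 2.16%, 0.295%, 2.28% and 17.8% of all features there, and limma-voom 0.0446%, 0%, 0.134% and 15.2%. At 100 µM 2 of 6 were called, both higher (IGFBP2 and IGFBP7), against 46.6% of all features, 23.6% higher and 22.9% lower. At 1000 µM 3 of 6 were called, all lower (IGFALS, IGFBP4 and IGF2), against 57.6% of all features, 28.5% higher and 29.1% lower. A share of 3 in 6 is near that background. The median log2 fold change of the 6 was -0.26, beside -0.01 over all tested features. With the set as a term, 2 were called at 1000 µM (IGFALS and IGFBP7), beside 38% of all features. Comparisons of 100 and of 1000 µM with control share the same control libraries.

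The comparison of 1000 with 100 µM does not use the controls. It called 3 of 6, all lower (IGF2, IGFALS and IGFBP7), against 44% of all features, 21.8% higher and 22.3% lower. With the set as a term the same 3 were called, beside 46.3% of all features. Between 100 and 10 µM none of the 6 was called by edgeR, DESeq2 or limma-voom, where 34.4%, 35.6% and 33.9% of all features were. By edgeR 0 of the 6 had an unadjusted p under 0.05, beside 7930 of all 17951 features. Within set B, 1000 µM was compared with 10 µM without crossing sets, and 65.1% of all features were called there. Of the same 6 members, IGFALS, IGFBP4, IGFBP7 and IGF2 were called, all lower. IGFALS had a log2 fold change of -2.71 ± 0.43 in that comparison (adjusted p = 1.21e-04, edgeR). IGFBP1, given as a description, was at 4.22 ± 0.084 there.

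**Figure D3:**
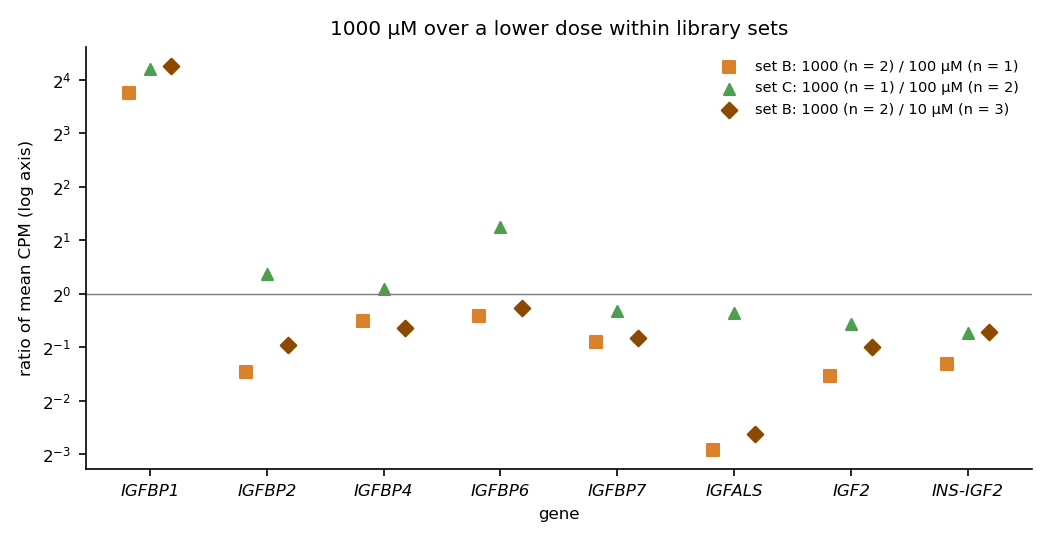
Ratios of the mean CPM at 1000 µM to that at 100 or 10 µM within library sets B and C (log axis), for IGFBP1, IGFBP2, IGFBP4, IGFBP6, IGFBP7, IGFALS and IGF2 and for the readthrough gene INS-IGF2. IGFBP1 lies at 13.5 to 19.1, and IGFALS at 0.132 to 0.777.

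The wider IGF system was followed in a list of 46 genes, of which 44 were in the table and 36 were tested. At 1000 µM 25 of the 36 were called, 17 higher and 8 lower, with a median log2 fold change of 0.38 beside -0.01 over all features. Of all features 57.6% were called there, 28.5% higher and 29.1% lower, and the counts per role below are to be read against these shares. In the fit with the set as a term, 20 of the 36 were called, 18 higher and 2 lower (KAZALD1 and USF1), beside 38% of all features. At 100 µM 19 were called, 14 higher and 5 lower, beside 46.6% of all features. At that dose 5 were called with the set as a term, beside 17.3% of all features, and all 5 were higher, among them GRB10, CREB1, IGF2BP1 and IGF2BP3.

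Of 3 tested receptors, 2 were called at 1000 µM, both higher, beside 57.6% of all features called. The insulin receptor INSR went from 43.8 ± 2.0 CPM to 86.1 ± 2.82 CPM (log2 0.98 ± 0.12, and 0.40 with the set as a term, adjusted p = 0.031), and the IGF1 receptor from 104 ± 12.7 CPM to 226 ± 44.0 CPM (1.12 ± 0.18). The scavenger receptor IGF2R, which clears IGF2, did not pass the threshold (0.18 ± 0.13, adjusted p = 0.25). Among 4 tested genes of the growth hormone axis, which drives IGF1 and IGFALS in liver, the signalling kinase JAK2 (0.97 ± 0.15) and the transcription factor STAT5B (0.63 ± 0.092, and 0.39 with the set as a term) rose. The feedback inhibitor SOCS2 was at -0.79 ± 0.25, a call lost with the set as a term and without 1000 µM replicate 1. The growth hormone receptor GHR was listed at 0 counts in control and at 1000 µM and was not tested.

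Of the genes that release or hold IGF from its binding proteins, 2 of 3 tested were called at 1000 µM, both higher. Of all features, 57.6% were called there. STC2, which inhibits the pappalysin proteases that cleave IGFBP4, went from 162 ± 6.59 CPM to 284 ± 36.8 CPM (log2 0.81 ± 0.085). The metalloprotease ADAM9 was at 0.53 ± 0.098. At 100 µM both were lower than control, STC2 by -0.28 ± 0.084 (adjusted p = 0.011, edgeR) and ADAM9 by -0.35 ± 0.098 (adjusted p = 0.0072), calls lost with the set as a term. The pappalysin PAPPA itself was at 0.163 ± 0.154 CPM in control (adjusted p = 0.62 at 1000 µM). Of the IGF2 mRNA-binding proteins and related genes, 4 of 5 were called at 1000 µM, 3 higher and 1 lower, beside the same share of all features. IGF2BP1, which binds the IGF2 transcript, went from 185 ± 4.10 CPM to 338 ± 12.2 CPM (0.87 ± 0.098, and 0.57 with the set as a term), and IGF2BP3 changed by 0.73 ± 0.11. IGFBPL1, an IGFBP-like gene, was at 1.18 ± 0.22, a call lost with the set as a term. KAZALD1, a secreted protein with an IGFBP-type domain, fell by 0.52 ± 0.12 at 1000 µM, but at 100 µM it was higher than control (0.50 ± 0.12, adjusted p = 0.0015, lost with the set as a term).

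Among 8 tested substrates and signalling genes, 3 rose and 2 fell, a share near that of all features. The 2 that fell were AKT1 and AKT2, both without a call once the set is a term. The adaptor GRB10, which inhibits insulin and IGF receptor signalling, showed the largest change in the list, from 4.41 ± 0.32 CPM in control through 10.3 CPM at 100 µM to 32.0 ± 3.78 CPM at 1000 µM (log2 2.85 ± 0.11). PIK3CA, the catalytic kinase below the receptors, rose by 1.04 ± 0.10. Of 13 factors known at the IGFBP1 promoter, 9 were called, beside 57.6% of all features. Of the 9, 5 were higher (PPARGC1A, CREB1, ATF4, FOXO3 and CEBPB) and 4 lower, among them USF1, FOXA1 and FOXA2. Of these 3, USF1 kept its call with the set as a term. The coactivator PPARGC1A went from 18 ± 1.53 CPM to 71.8 ± 7.95 CPM (log2 2.0 ± 0.12). CREB1, the cAMP-responsive factor, went from 27.9 ± 2.86 to 59.6 ± 7.15 CPM (1.10 ± 0.095), and ATF4, a factor of the amino acid response, from 449 ± 23.0 to 1011 ± 115 CPM (1.17 ± 0.10). Adjusted p for the genes called here and named with a value ran from 1.68e-13 (GRB10) to 0.011 (SOCS2), by edgeR.

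**Figure D4:**
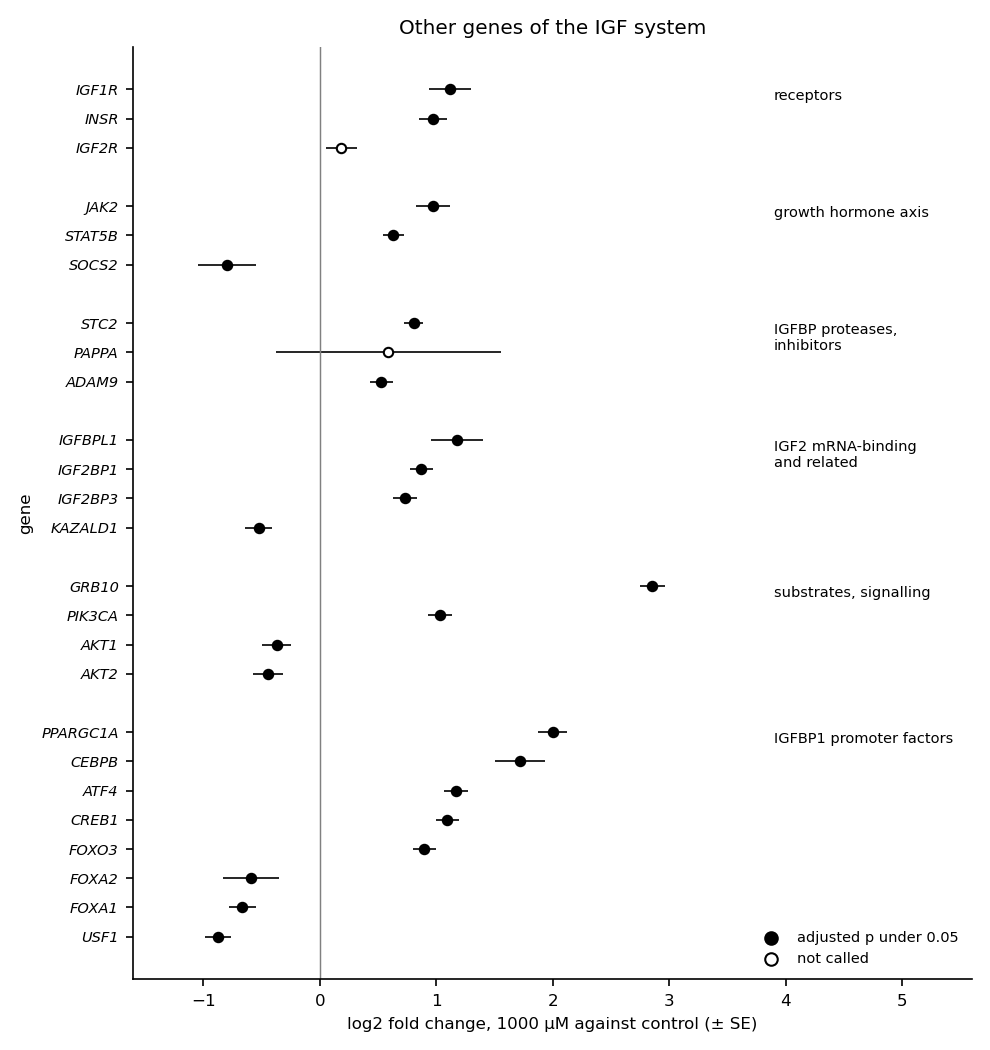
Log2 fold change at 1000 µM against control (horizontal axis) for the tested IGF system genes named in the text, with their standard errors, grouped by role, with calls at an adjusted p under 0.05 marked. GRB10 at 2.85 and PPARGC1A at 2.0 lie farthest to the right.

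Genes whose log2 CPM tracked IGFBP1 most closely across the 21 libraries were FST, ERRFI1, CYP1A1, S100P and AQP3, among 10613 candidates. Their Pearson r with IGFBP1 was 0.985, 0.985, 0.982, 0.979 and 0.979, and 367 candidates exceeded 0.9. The likeness rests in large part on the 1000 µM libraries: over the other 18, r was 0.56, 0.80, 0.63, 0.66 and 0.33. FST, an activin-binding secreted protein, went from 17.3 ± 1.71 to 186 ± 11.3 CPM, and CYP1A1, the drug-metabolising cytochrome under the aryl hydrocarbon receptor, from 2.88 ± 0.28 to 79.2 ± 1.39 CPM. AQP3, a channel for water and glycerol, went from 1.28 ± 0.11 to 34.7 ± 3.49 CPM. With the set means removed, the 5 genes closest to IGFBP1 were GPAT3, AQP3, CD55, RBM24 and CSGALNACT1, of which AQP3 is shared. The points share libraries and depth, so these correlations are a description.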

How the data were processed

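Poly(dT)-purified RNA from 21 HepG2 libraries was sequenced, and the authors deposited unnormalized read counts, 1 whole number per feature and library. The submitters' processing notes name HISAT2, DESeq2 and GRCh38, with no role. The counting tool, annotation and use of strand are not given in the sources used here. The table's 21 other per-sample columns were left aside. Doses came from the titles. Members and lists were chosen with earlier results of these data known.

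Counts were filtered with filterByExpr by group, given TMM factors, and fitted in R 4.3.3 by the quasi-likelihood method of edgeR 4.0.16, in 1 fit over all 21 libraries and 7 group means. Tests were 2-sided, with Benjamini-Hochberg adjustment over all 17951 features, at a threshold of 0.05. CPM used TMM-scaled library sizes, and log2 CPM a prior count of 2. Floors are 3 counts and cover counting error only. After ±, log2 fold changes carry the standard error of the fit, and CPM and RPKM the SD over 3 libraries. Both include the spread between replicates. Replicate pairs all differed beyond sampling noise, and none of 21 pairs was identical. The replicate numbers do not pair the libraries: the mean correlation of deviations was -0.108 to 0.152, over 0.1 in 1 of 21 pairs of groups. Library sets came from average-linkage clustering of 13 mitochondrial mRNAs. Named genes were all members, up to 3 called at 1000 µM per list with the smallest p, and the 5 genes most like IGFBP1. IGF2R, PAPPA, GHR, KAZALD1, AKT1, AKT2, FOXO3, CEBPB, USF1, FOXA1 and FOXA2 were named outside that rule, after their values were seen, and some genes of the lists are counted but not reported here by name. Promoter windows came from RefSeq (GRCh38.p14). The fit was tested on simulated data. Alternatives were DESeq2 size factors, DESeq2 1.42.0's Wald test, limma-voom (limma 3.58.1), a minimum mean of 5 CPM, no filter, only the 2 groups compared, a replicate block, the library set as a term, sets A or B alone, annotated genes only, a prior count of 0.5, and each library left out.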

Additional observations from a re-analysis of the deposited data

How the results depend on the processing

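Limits: doses of 10 µM and above share no library set with control, the counting of overlapping genes is unknown, and IGFBP2, IGFBP3, IGFBP6 and IGFALS rest on few counts. Set-term values of these doses against control rest on 1 library, 1 µM replicate 3, which alone links set A to the other sets. The cause of each change below was not tested. Percentages are the share of all features called in the same fit. Members called at 100 µM numbered 2 of 6, but 1 of 6 with DESeq2's Wald test (46.7%), 1 of 8 without a filter (21%), 1 of 3 at a mean of at least 5 CPM (55.5%), 1 of 4 with only the 2 groups compared (41%), 1 of 6 with the replicate block (45.1%) and 0 of 6 with the library set as a term (17.3%). At 1000 µM they numbered 3 of 6, but 1 of 5 with only the 2 groups compared (IGFALS; 50%), 2 of 3 at a mean of at least 5 CPM (66.8%), where IGFALS was not tested, and 2 of 6 with the set term (38%), which kept IGFALS, lost IGFBP4 and IGF2 and added IGFBP7. Without a filter they numbered 3 of 8 (28.1%), with IGFBP3 in place of IGF2. For 1000 against 100 µM they numbered 3 of 6, then 1 of 5 with only the 2 groups compared (33.1%) and 6 of 7 in set B alone (51%), where 100 µM has 1 library. IGFBP3, tested there and without a filter only through its 1000 µM counts, is 1 of these 6. For 100 against 10 µM they numbered 0 of 6, then 2 of 6 with only the 2 groups compared (39.1%) and 1 of 7 in set B alone (33.2%). IGF system genes called at 100 µM numbered 19, and 5 with the set term. The log2 fold change of IGFBP1 at 1000 µM was 4.99, 4.55 with the set term and 4.99 with the replicate block, whose calls at 1000 µM were 3 of 6 members and 24 of 36 IGF system genes (56.6%). The set term turned IGFBP7 at 100 µM from 0.70 to -0.32. At 1000 µM against control, neither called, IGFBP7 (-0.08) turned to 0.04, 0.05 and 0.12 without control replicate 2 or 1000 µM replicate 1 or 2, and INS-IGF2 (-0.05) to 0.19 and 0.17 without 1000 µM replicate 1 or 2. Their ranges over fits without 1 library were -0.49 to 0.12 and -0.66 to 0.19. Leaving out 1 library gave 0 to 2 members at 100 µM (0 without 100 µM replicate 1), 2 to 3 at 1000 µM, 2 to 4 for 1000 against 100 µM, 14 to 21 and 21 to 27 IGF system genes at 100 and 1000 µM, and 4.81 to 5.07 for IGFBP1. Of the remaining values under alternatives, 1032 kept direction and call, 40 lost the call, 3 gained it and 4 moved (IGFBP1 at 10 and 100 µM and for 100 against 10 µM, and the genes most like it, under the set term or with set means removed).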
